A study of Mus musculus with 24 samples.

Results

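The comparison of keratinocytes expressing AFOS with keratinocytes kept without doxycycline (DOX) rested on 2 of the 12 deposited ATAC-seq peak lists, which cover 4 of the 24 samples. ATAC-seq marks DNA that a transposase can reach, so a peak is a stretch of accessible chromatin. Every peak of either list was a member. Peaks that overlapped by at least 1 bp were joined, which gave 68656 regions. Those with a peak in both lists are called kept, those in the AFOS list alone opened, and those in the noDOX list alone closed.

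The noDOX cells carried K14rtTA and TRE-myc-Sox9 and received no DOX, so their Sox9 transgene was not induced. The AFOS cells carried K14rtTA and TRE-FLAG-AFOS and received DOX at 1 µg/ml. Their peak names add that DOX was given for 3 days. Both are keratinocytes of male CD1 mice cultured from back skin, with rtTA under the promoter of keratin 14, a keratin of basal epidermal cells. Per the study's methods the transgenes were delivered by lentivirus with drug selection. The groups therefore differed in the transgene, in DOX and in the making of the line, and these cannot be told apart from AFOS itself. Each group had 2 samples, but the authors deposited 1 pooled list for each, so no difference between the groups could be tested against the spread of replicates. Intervals are 95% Wilson intervals over regions and cover counting error only. Nor can fewer cells with an accessible site be told apart from less accessibility in each cell.

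The other lists served for reference only. In culture, with DOX at 1 µg/ml, these were WT-SOX9 cells (K14rtTA; TRE-myc-Sox9), dHMG-SOX9 (TRE-myc-Sox9noHMG) and dTA-SOX9 cells (TRE-myc-Sox9noTA), and cells with TRE-myc-Sox9 joined by TRE-FLAG-AFOS or by TRE-ARID1a, all with K14rtTA. The 5 skin lists come from male CD1 mice with K14rtTA and TRE-myc-Sox9, from cells sorted for high CD49f and high Ly6A without CD34, CD31, CD45, CD117 or CD140a. D0 mice were at postnatal day 21 and had no DOX. W1, W2 and W6 mice were at postnatal days 28, 35 and 63, with SOX9 induced by DOX since D0. Per the study's methods, W12 skin came from newborn pups and was grafted onto immunocompromised Nude female mice. After healing, SOX9 was induced in it by DOX.

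AP1 is a family of dimeric transcription factors built from FOS and JUN proteins, and its word TGAGTCA is among the most common in the enhancers of keratinocytes. AFOS is a dominant negative form of FOS whose basic region is replaced by an acidic one. It pairs with JUN proteins and keeps the dimer off DNA. In keratinocytes AP1 is best known for driving genes of differentiation, wound response and matrix breakdown.

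Printed here are high-scoring opened regions that held an AP1 word, the highest-scoring opened region, high-scoring closed ones, and a kept region whose rank differed widely. Most were picked for holding the word, so they do not show how common it was. The central 200 bp of each, on the plus strand of GRCm38 (the mm10 build of the files), is printed with the AP1 word, TGAGTCA or its complement TGACTCA, in capitals. The Emg1 window, chr6:124689073-124689272, lies in an intron of Lpcat3 with Emg1 holding the nearest transcription start site (TSS), 23005 bp away. The Gcfc2 window, chr6:81677340-81677539, is intergenic. Pak3, chrX:143483011-143483210, was the highest-scoring opened region of all and had no AP1 word.
Emg1: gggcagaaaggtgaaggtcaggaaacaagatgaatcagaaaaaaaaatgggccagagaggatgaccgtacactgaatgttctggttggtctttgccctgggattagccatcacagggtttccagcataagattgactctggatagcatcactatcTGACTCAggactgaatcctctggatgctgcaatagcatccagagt
Gcfc2: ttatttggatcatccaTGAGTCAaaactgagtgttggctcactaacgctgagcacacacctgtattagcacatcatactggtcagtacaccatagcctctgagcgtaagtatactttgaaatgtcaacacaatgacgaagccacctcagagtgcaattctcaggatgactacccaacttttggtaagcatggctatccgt
Pak3: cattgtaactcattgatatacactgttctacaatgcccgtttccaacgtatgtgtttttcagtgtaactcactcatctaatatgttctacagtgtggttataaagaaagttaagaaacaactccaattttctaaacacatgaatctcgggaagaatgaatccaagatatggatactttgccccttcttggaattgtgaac

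Among closed regions with an AP1 word, the highest noDOX scores were those nearest Txndc8 (chr4:58032813-58033012, intergenic) and Ugt2b34 (chr5:86856597-86856796, intergenic). They were chosen for the word, after their values were seen. Over all closed regions 20.2% held it in the central 200 bp, against 32.1% of opened and 23.6% of kept ones. The Bms1 window (chr6:118388397-118388596, intron of Bms1) is the highest-scoring closed region over 1 kb from a TSS and has no AP1 word.
Txndc8: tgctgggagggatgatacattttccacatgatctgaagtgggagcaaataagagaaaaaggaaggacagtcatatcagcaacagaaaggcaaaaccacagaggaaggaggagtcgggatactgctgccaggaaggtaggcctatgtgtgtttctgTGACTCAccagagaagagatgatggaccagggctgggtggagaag
Ugt2b34: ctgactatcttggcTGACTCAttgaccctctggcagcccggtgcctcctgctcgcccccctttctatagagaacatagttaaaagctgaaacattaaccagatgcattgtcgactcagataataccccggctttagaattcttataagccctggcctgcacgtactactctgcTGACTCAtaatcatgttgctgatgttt
Bms1: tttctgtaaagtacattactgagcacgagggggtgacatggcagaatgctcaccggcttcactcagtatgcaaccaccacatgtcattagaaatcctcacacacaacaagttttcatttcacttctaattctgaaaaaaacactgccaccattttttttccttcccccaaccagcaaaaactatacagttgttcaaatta

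Of kept regions, the one nearest Tenm3 (chr8:49346940-49347139, intergenic) ranked far higher in AFOS and held an AP1 word.
Tenm3: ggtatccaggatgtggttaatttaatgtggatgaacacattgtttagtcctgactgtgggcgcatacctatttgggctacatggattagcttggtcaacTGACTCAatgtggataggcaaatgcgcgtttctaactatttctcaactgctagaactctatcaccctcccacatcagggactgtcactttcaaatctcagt

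The noDOX list held 53093 peaks and the AFOS list 60231. Of the 68656 regions, 43592 (63.5%) were kept, 15772 (23.0%) opened and 9292 (13.5%) closed. Closed regions made up 17.6% (17.2 to 17.9) of the 52884 regions with a noDOX peak, and opened regions 26.6% of the 59364 regions with an AFOS peak. The AFOS list is longer, and a longer list has more regions of its own by count alone. Cutting both lists to the same length by score left 11218 opened and 11748 closed regions. Equal lengths bring these counts near each other whatever the cells, so the cut is no test of the excess of opened regions. The score, the fifth column of each list, had a median of 10.8 in noDOX and 9.52 in AFOS, and its lowest value in each list was near the threshold of 3.

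Changed regions were weak ones. Opened regions had a median AFOS score of 4.70, and 53.9% of them scored under 5. Closed regions had a median noDOX score of 4.60, and 56.0% scored under 5. Kept regions had medians of 13.8 in noDOX and 13.5 in AFOS. Ranked within its own list, 52.3% (51.0 to 53.6) of noDOX regions in decile 1, the lowest scores, were closed, against 14.4% in decile 5 and 0.113% in decile 10. In the AFOS list 65.7% of decile 1 was opened, 27.4% of decile 5 and 0.316% of decile 10. Only 19 opened and 6 closed regions reached the top decile of their list.

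**Figure D1:**
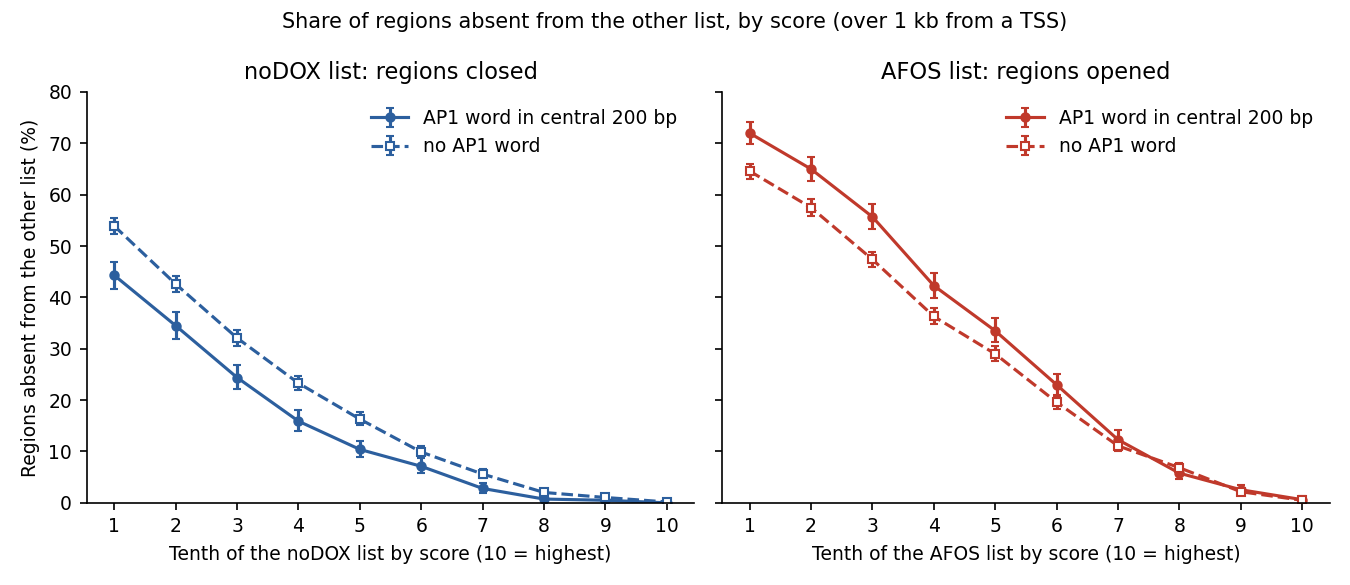
Share of regions over 1 kb from a TSS that had no peak in the other list (y axis, percent), by decile of score in the list named (x axis), for regions with and without an AP1 word in their central 200 bp. Bars are 95% Wilson intervals. From decile 1 to decile 6 of the AFOS list the opened share is higher with the word than without it (72.0% against 64.6% in decile 1), and in the noDOX list the closed share is lower with the word (44.3% against 53.9% in decile 1).

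Most changed regions lay away from promoters. Of opened regions 2.76% (2.52 to 3.03) were centred within 1 kb of the TSS of a protein-coding gene, against 10.3% (9.67 to 10.9) for closed ones and 24.2% (23.8 to 24.7) for kept ones. The median distance to a TSS was 30658 bp for opened, 24277 bp for closed and 15589 bp for kept regions. Introns held 46.0% of opened and 42.2% of closed regions, and 48.8% and 43.9% were intergenic. Opened regions were also narrower, with a median of 288 bp against 332 bp for closed and 654 bp for kept regions, and lower in GC, with a mean of 47.1% against 50.5% and 52.8% over the central 200 bp. Few were edges of a peak in the other list: 7.94% of opened regions lay within 1 kb of a noDOX peak and 9.33% of closed regions within 1 kb of an AFOS peak.

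Accessibility at promoters was mostly kept. Of regions within 1 kb of a TSS, 10571 were kept, 954 closed and 436 opened. Kept promoters were high-scoring, with a median noDOX percentile of 78.2 against 22.1 for closed ones. In noDOX decile 1, 66.3% of promoter regions were closed, against 51.3% of regions over 1 kb from a TSS. In decile 4 these shares were 26.3% and 21.3%, and in decile 6 5.29% and 9.11%. In AFOS decile 1, 44.1% of promoter regions were opened, against 66.7% of the others. Closed promoters had a median width of 552 bp and a mean GC of 64.2%, near that of kept promoters (65.3%), whereas opened ones had a mean GC of 53.4%. An AP1 word lay in 20.6% (17.1 to 24.7) of opened promoter regions, in 5.24% (4.0 to 6.84) of closed and in 3.33% (3.0 to 3.69) of kept ones.

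Of 16 words searched on both strands, 1 of them a control, the AP1 word differed most between opened and closed regions in percentage points. Over 1 kb from a TSS it lay in the central 200 bp of 32.4% (31.7 to 33.2) of opened regions, 30.0% (29.5 to 30.5) of kept and 21.9% (21 to 22.8) of closed regions, and over all 68656 regions in 25.1%. The control, the same letters in another order, TCAGTGA, was found in 6.40%, 5.67% and 5.27% of these 3 classes. The regions that AFOS cells lacked thus held the fewest AP1 words. The cause was not tested.

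The sizes of both differences from kept regions depended on how they were measured. With a central window of 400 bp, over 1 kb from a TSS, opened regions fell under kept ones (40.3% against 42.6%), and closed regions had 29.8%. Within narrow GC classes, opened and kept regions over 1 kb from a TSS were alike between 42% and 48% GC (34.6% each) and between 48% and 54% (31.3% and 31.2%). Closed regions of the same GC classes had 26.1% (24.5 to 27.8) and 21.2% (19.7 to 22.7). Under 42% GC the values were 34.4% for opened, 29.2% for kept and 27.5% (24.9 to 30.2) for closed regions, whose interval overlaps that of kept ones (27.9 to 30.5). At 54% GC or more they were 25.6%, 22.2% and 13.3%.

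Score was then matched. Opened regions of AFOS decile 1 held the AP1 word in 31.4% (30.0 to 32.9) and kept regions of that decile in 24.5% (22.7 to 26.5), while in decile 7 the shares were 34.5% and 32.0% with overlapping intervals, and in decile 8 they were 28.8% and 32.6%. Closed regions of noDOX decile 1 held it in 23.5% (21.9 to 25.1) and kept regions of that decile in 31.1% (29.3 to 32.9). In decile 5 these were 21.3% and 31.2%. Repeated words were rare in every class: 2 matches lay in 2.61% of the opened, 1.53% of the closed and 2.58% of the kept class. ATGAGTCAT made up 7.46% of the matches in opened, 8.03% in closed and 7.65% in kept regions, with overlapping intervals. Matches with A or G before and C or T after the word made up 32.1% (30.8 to 33.3), 34.2% (32.2 to 36.4) and 35.2% (34.3 to 36.1).

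**Figure D2:**
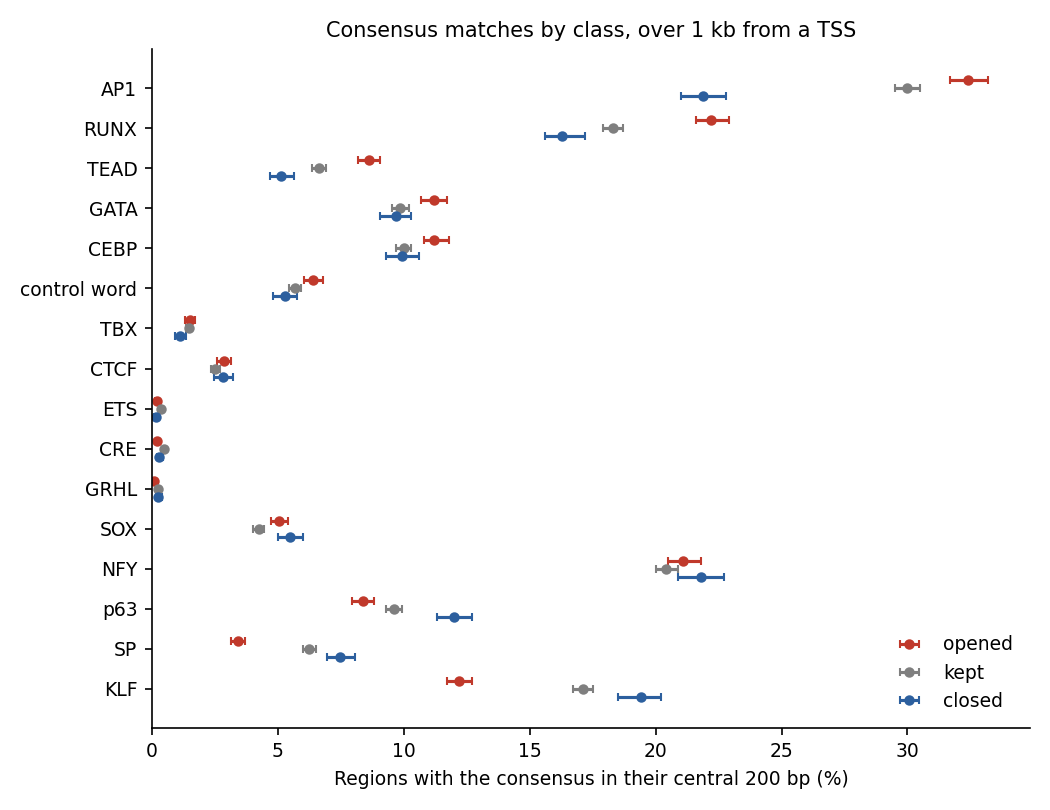
Percent of regions over 1 kb from a TSS with each consensus in their central 200 bp (x axis) for opened, kept and closed regions (points, with 95% Wilson intervals), ordered by the difference between opened and closed. AP1, RUNX and TEAD stand highest in opened regions, and KLF, SP and p63 highest in closed ones.

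Other words were counted the same way but not compared within GC classes or score deciles, and opened regions had the lowest mean GC. RUNX factors, which act with AP1 in many enhancers, have the core word TGTGGT, and it lay in 22.2% (21.6 to 22.9) of opened, 18.3% of kept and 16.3% (15.6 to 17.2) of closed regions over 1 kb from a TSS. The word of TEAD, the DNA-binding partner of YAP, is GGAATGT, and it lay in 8.61%, 6.62% and 5.13%. KLF words, CCACCC, ran the other way with 12.2% of opened, 17.1% of kept and 19.4% of closed regions. The consensus of p63, the master regulator of stratified epithelium, lay in 8.39% (7.96 to 8.83) of opened, 9.59% (9.28 to 9.92) of kept and 12% (11.3 to 12.7) of closed regions. Shares of NFY words, CCAAT, were 21.1%, 20.4% and 21.8%, and those of CTCF 2.86%, 2.51% and 2.82%, with overlapping intervals between opened and closed. On the same scale SOX words, ACAATAG or ACAATGG, lay in 5.05% of opened, 4.23% of kept and 5.47% of closed. The word of GATA factors, AGATAA, was found in 11.2%, 9.83% and 9.69% of the same classes. That of CEBP factors, TTGCNNAA, was found in 11.2%, 10% and 9.93%, and that of TBX factors, AGGTGTGA, in 1.49%, 1.45% and 1.12%. Of the GC-rich words of promoters, SP (GGGCGG) lay in 3.40%, 6.24% and 7.48%, and ETS (CCGGAAGT) in 0.189%, 0.366% and 0.156%, with overlapping intervals between opened and closed. CRE (TGACGTCA), the word of CREB and ATF dimers, was found in 0.202%, 0.494% and 0.288%, and GRHL (AACCGGTT) in 0.0978%, 0.245% and 0.252%. No word searched contains another, though neighbouring matches can share bases. A match is a description of letters and not evidence of binding.

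The position of the words showed that the 2 lists were not called alike. AFOS peaks are named as called from fragments and noDOX peaks are not. In AFOS peaks under 400 bp wide, the 11236 AP1 words near the peak lay on average 31.2 bp to the lower-coordinate side of the centre, and the 1233 CTCF words 39.3 bp to that side. In noDOX peaks of that width the mean offsets were -1.16 bp for AP1 and -5.38 bp for CTCF. Where 1 noDOX peak under 300 bp met 1 AFOS peak, the AFOS peak ended a median of 73.0 bp later and started 7.0 bp earlier. For noDOX peaks of 1000 bp or more the AFOS peak ended 88.0 bp earlier and started 3.0 bp later. Grouping pairs by noDOX width by itself favours wider AFOS peaks beside narrow noDOX peaks and narrower ones beside wide peaks. Over all 42567 such pairs the median width was 556 bp in noDOX and 551 bp in AFOS. Only the unequal shift of start and end bears on how the peaks were called. Centres of opened regions come from AFOS peaks alone and those of closed regions from noDOX peaks alone, so a central window was placed differently in each class.

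**Figure D3:**
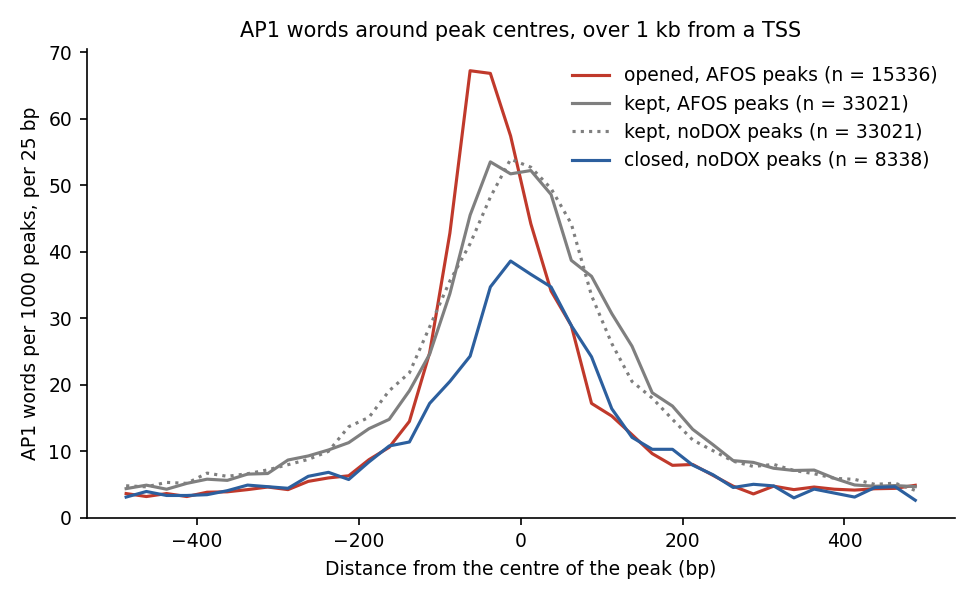
AP1 words per 1000 peaks in bins of 25 bp (y axis) against distance from the centre of the peak in bp (x axis, plus strand), for peaks over 1 kb from a TSS. Opened AFOS peaks reach 67.2 words per 1000 peaks between 75 and 50 bp to the lower-coordinate side and 44.2 just past the centre, whereas closed noDOX peaks reach 38.6 at the centre.

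Within kept regions the ranks of the lists followed each other, with a Spearman rho of 0.740 over 43592 regions, which are not independent replicates. The percentile of a region was higher in AFOS by a median of 1.56 points. It was higher by 25 points or more in 5659 kept regions (13.0%) and lower by as much in 3228 (7.41%). The AFOS list is the longer one, so these percentiles are not on equal terms. Ranked among kept regions alone, 10.8% were higher by as much and 10.3% lower, with a median of -0.434 points. With lists of equal length these were 10.2% and 10.9%. Over 1 kb from a TSS and ranked among kept regions alone, 33.1% (31.7 to 34.5) of the 4413 that ranked at least 25 points higher in AFOS held an AP1 word. So did 30.4% (29.7 to 31.2) of the 13620 that differed by less than 10 points and 24.0% (22.5 to 25.4) of the 3285 that ranked at least 25 points lower. The p63 consensus lay in 9.40%, 9.14% and 11.5% of these, and TEAD words in 8.84%, 6.2% and 4.93%. These ranks come from the same peak lists as the classes and are no independent evidence.

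The highest-scoring opened regions were mostly shared with the SOX9 mutant lists and absent from skin. Pak3, a p21-activated kinase, had the nearest TSS to the strongest one, 35480 bp away. It scored 109 in AFOS, 48.2 in the list of cells with SOX9 and AFOS and 90.2 in that with SOX9 and ARID1a, and had no peak in noDOX, WT-SOX9 or either SOX9 mutant. In the 5 lists of skin it scored 127, 115, 161, 149 and 215. The culture lists that held it are the 3 named as called from fragments, and 51.5% of its window is repeat-masked. For the Emg1 region the AFOS score was 48, against 15.1 in the SOX9 lacking the HMG domain and 32.8 in the SOX9 lacking the transactivation domain, with no peak in any of the other 9 lists. The Gcfc2 region scored 39.4 in AFOS, 15.2 and 43.3 in those mutants, and was in no other list. The Dlg2 region, in an intron of a synaptic scaffold gene, scored 39.7, 11.5 and 37.5 in the same lists. Of the 10 highest, 9 had a peak in both SOX9 mutant lists and 8 in no skin list. Also among them were Apbb1ip (46.9 in AFOS), Parvb (45.6), Tspan11 (45.5), Tpra1 (45.2) and Fbl (40.2). Of the opened regions named here, only Pak3 and Fbl (7.25) had a peak in the list of cells with SOX9 and AFOS. Chromosome 6 held 4 of the 10.

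The highest-scoring closed regions were of a different kind. Gm14410, Gm14325 and Gm14326 are predicted genes that lie near each other on chromosome 2, and their promoter peaks scored 117, 51.5 and 46.2 in noDOX. Of these, Gm14410 scored 58.5 to 64.8 in the 5 skin lists and was in no culture list besides noDOX and WT-SOX9. The Slc1a3 and Gm10719 regions, at 43.2 and 41.1, lay wholly in repeat-masked sequence at their centre. Gm31371 and Gm15319, both on chromosome 8, scored 51.1 and 42.4. Bms1 scored 56.6, Med13l 39.6 and Gpr15 36.1. Gm14410, Gm14325, Gm14326, Bms1 and Slc1a3 had no peak in any of the 3 lists named as called from fragments. Gm10719 had one there only in SOX9 with ARID1a, at 3.12. Gm31371, Gm15319, Med13l and Gpr15 had a peak in SOX9 with AFOS and in SOX9 with ARID1a. The part of the way of calling in this was not tested. The Med13l region scored 8.92 in WT-SOX9, 113 in SOX9 with AFOS and 55.3 in SOX9 with ARID1a, and 8.10 to 17.0 in the 5 skin lists. It scored 5.4 in dHMG-SOX9 and had no peak in AFOS or dTA-SOX9. The Txndc8 region scored 32.4 in noDOX, 60.8 in WT-SOX9 and 57.6 in SOX9 with ARID1a. Ugt2b34, with 2 AP1 words, scored 32.3, 9.57 and 25.8 in the same lists. Both also had a peak in SOX9 with AFOS, at 15 for Txndc8 and 10 for Ugt2b34. In dHMG-SOX9 they scored 4.13 and 3.23. In dTA-SOX9 Txndc8 scored 12.8 and Ugt2b34 had no peak.

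Among kept regions, that of Tenm3 scored 3.31 in noDOX and 44.2 in AFOS, a difference of 89.6 percentile points. Arhgap17, a GTPase-activating protein gene, had an intronic region at 3.07 and 36.2. Kctd12 (3.07 and 30.3), Rhou (3.46 and 35.2) and Ifnlr1 (3.31 and 32.0) completed the 5 that ranked highest in AFOS relative to noDOX. In the other direction stood Arpc1b (34.3 in noDOX and 3.02 in AFOS), Myo10 (36.5 and 3.31), Ncs1 (28.2 and 3.01), Tmem131l (39.2 and 3.70) and Fzd10 (33.9 and 3.46). All of those 5 had a peak in D0 skin, with scores of 11.4 to 30.6, while of the 5 that ranked higher in AFOS only Ifnlr1 did (4.13). None of the 10 but Tenm3 held an AP1 word in its central window.

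**Figure D4:**
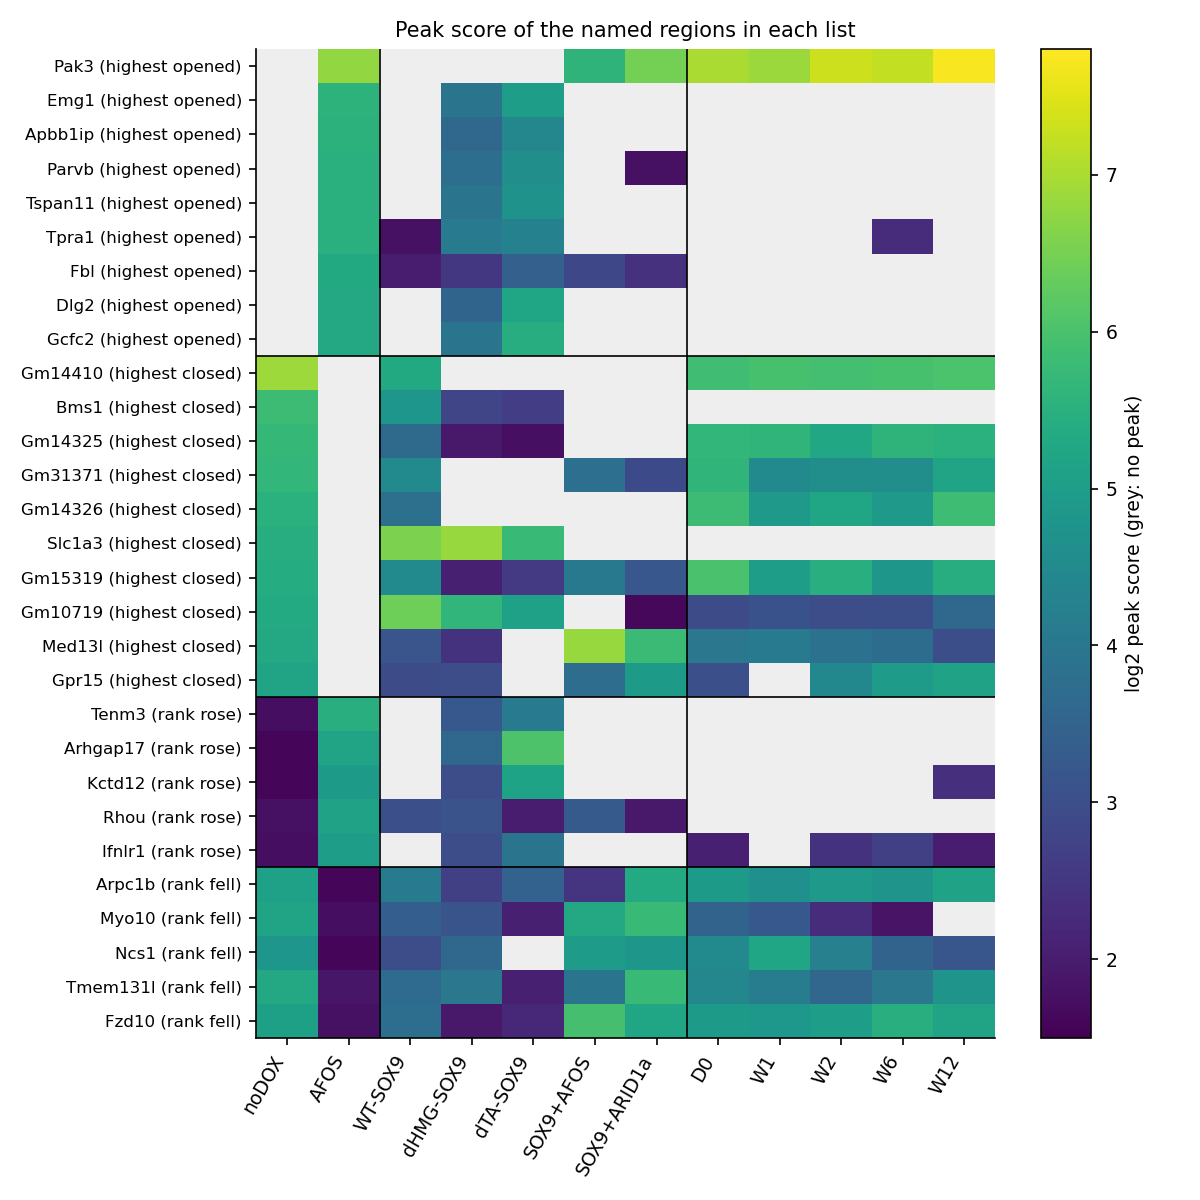
Peak score on a log2 scale (colour) of 9 of the 10 highest-scoring opened, the 10 highest-scoring closed and the 10 kept regions with the largest rank differences (rows, named by the gene of the nearest TSS) in the 12 lists (columns: noDOX and AFOS, 5 other culture lists, 5 skin lists). Grey marks no peak. Most of the top opened regions have a peak in both SOX9 mutants and none in skin, whereas most of the closed ones and those that ranked lower in AFOS have a peak in skin.

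For skin the same held for the classes as a whole. The D0 list comes from sorted CD49f-high cells of skin of mice before DOX. Its peaks overlapped 11.4% of the opened class, 47.0% of the closed class and 63.9% of the kept class. In none of the 5 skin lists was there a peak for 71.2% of the opened, 28.2% of the closed and 16.9% of the kept class. The classes were also compared within score deciles. Over 1 kb from a TSS, D0 skin had a peak in 12.5% of opened and 47.3% (45.1 to 49.6) of kept regions of AFOS decile 1, and in 8.74% and 48.4% of decile 5. Of closed regions it had one in 33.6% (31.8 to 35.4) in noDOX decile 1 and 58.5% (54.7 to 62.2) in decile 5, above the kept regions of those deciles (24.7% and 48.9%). In deciles 1 to 8 of noDOX closed regions had a D0 peak at least as often as kept ones, in decile 9 the shares were 77.8% and 78.7%, and decile 10 held 3 closed regions. Whether the skin lists and the noDOX list share a way of calling peaks that the AFOS list lacks was not tested beyond the word offsets.

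Opened and closed regions were not spread evenly over chromosomes. Chromosome 5 had the lowest share opened, 15.5%, and the highest share closed, 20.3%, and its 2550 kept regions ranked lower in AFOS by a median of 4.50 points, where kept regions of all chromosomes ranked higher by 1.56. Chromosome 16 followed with 18.1% opened, 17.2% closed and a median of -1.40. On chromosome 7, by contrast, 24.9% of regions were opened and 9.92% closed, and kept regions ranked higher by a median of 5.69 points. Chromosome 6 had 26.9% opened and 11.8% closed. The cause was not tested.

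By the nearest TSS within 100 kb, 57752 regions fell to 15922 protein-coding genes, of which 21.2% of regions were opened and 13.3% closed. Pde4d, a cAMP phosphodiesterase gene, had the most opened regions, 14 of its 32, with AFOS scores of 3.16 to 7.28, and 4 closed ones. Btbd11 had 12 opened of 37 (3.31 to 13.7), and Iqsec1, an exchange factor for the GTPase ARF6, 11 of 24 (3.04 to 15.5). Sept9, a septin gene, had 11 of 38 (3.81 to 15.1), and Tnr, which encodes the matrix protein tenascin-R, 10 of 14 (3.15 to 17.5) with none closed. An AP1 word lay in 5 of the 10 opened regions of Tnr and in 5 of the 14 of Pde4d.

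Foxp1, a forkhead factor that holds hair follicle stem cells quiescent, had the most closed regions, 21 of its 64, with 5 opened and 38 kept. Their noDOX scores ran from 3.04 to 14.1, 4 of the 21 held an AP1 word, and 6 had a peak in D0 skin. Filip1l had 12 closed of 27, with scores up to 35.9, and Frmd4a, a scaffold of cell polarity, 12 of 32. Zbtb16, which encodes the zinc finger factor PLZF, had 10 closed regions of 13 (3.62 to 20.7) and none opened. Kank1, an actin regulator, likewise had 10 of 14 (4.43 to 23.0) and none opened. No AP1 word lay in the closed regions of Zbtb16, and 1 in those of Kank1. Genes with many regions are long, and these counts are not corrected for gene length.

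The construct genes were read at their own loci. The Fos promoter was kept, with 28.2 in noDOX and 32.1 in AFOS, and no peak was centred in a later exon of Fos in either list. At Sox9 the promoter was kept (21.8 and 22.8), and a peak in an exon past the first scored 3.71 in noDOX and was absent from AFOS. At Arid1a the AFOS list had 8 peaks whose centre lay in an exon other than the first, the highest at 8.69, where no other gene had more than 3, and noDOX had 1. The list of cells with SOX9 and ARID1a had 12 such peaks, up to 38.2, and that with SOX9 and AFOS 7, while WT-SOX9 had none and the SOX9 mutants 1 each. ARID1a, a subunit of the SWI/SNF remodeller, is a construct of another group, and the labels of the AFOS samples do not name it. What these exon peaks are was not tested, and the list is the one labelled AFOS throughout.

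At promoters, markers of the labelled cell type were in place. All 10 keratinocyte markers, among them Krt5, Krt14 and Trp63, had a promoter peak in both lists. Of other types, 2 of 8 fibroblast, 2 of 8 melanocyte, 1 of 8 immune and 1 of 7 endothelial markers had one in noDOX, and as many in AFOS, although among endothelial markers it was Kdr in noDOX and Pecam1 in AFOS. Kept promoter peaks were those of Col1a1, Pdgfra, Mitf, Pmel and Cd68, while Dcn, Lum, Tyr, Ptprc and Cdh5 had none. Of the regions assigned to these genes the opened ones were 6 of 16 for fibroblast, 10 of 25 for melanocyte, 4 of 9 for immune and 11 of 30 for endothelial markers, with 1, 1, 1 and 4 closed, against 21.2% opened and 13.3% closed over all genes. All 3 regions of Cdh5, the cadherin of endothelium, were opened, with scores up to 10.4, and that of Kit, the receptor of melanoblasts and mast cells, scored 9.33. The part of these in the other results was not tested.

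**Figure D5:**
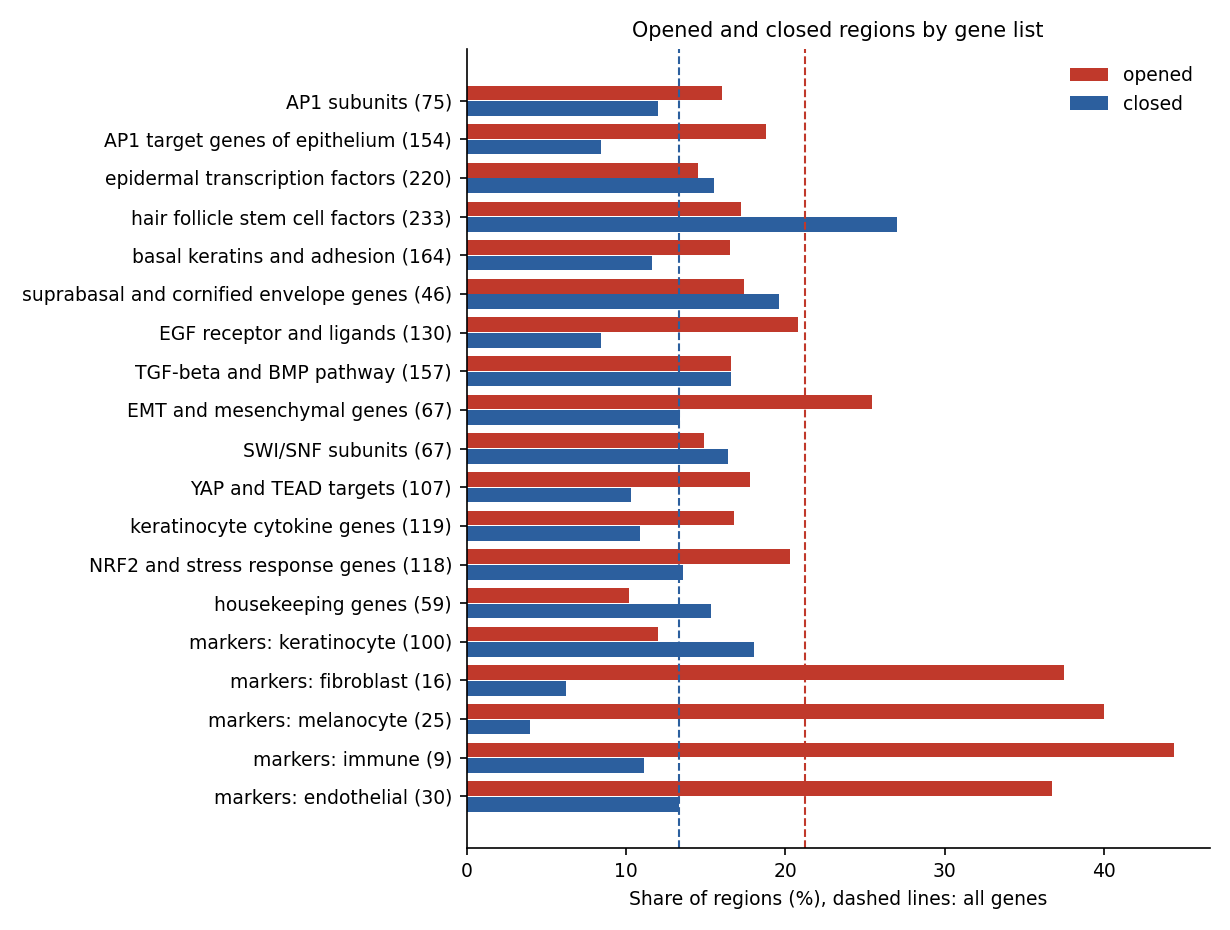
Percent of regions opened and closed (bars from 0) among the regions assigned to each gene list, with the number of regions in brackets. Dashed lines give the shares over all genes, 21.2% opened and 13.3% closed. Hair follicle stem cell factors have the highest closed share, 27%, and the marker lists of other cell types, with 9 to 30 regions, the highest opened shares.

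Of the 14 gene lists, hair follicle stem cell factors had the most closed regions for their size. Of their 233 regions 63 (27%) were closed and 40 (17.2%) opened, against 13.3% and 21.2% over all genes, and 24.9% of the other 169 were closed without Foxp1. The count of promoters with a peak was 16 of 17 in noDOX and 13 in AFOS. Lhx2, a LIM homeobox factor of the hair follicle bulge, had its promoter peak in noDOX alone, at 4.76, but 4 of its 6 regions were opened and 2 closed. Gli3 and Ptch1, an effector and the receptor of hedgehog signalling, had closed promoter peaks, at 11.1 for Gli3 and at most 6.08 for Ptch1. The Lhx2 and Gli3 peaks and the highest of the Ptch1 peaks lay in all 5 skin lists. Runx1 had 7 closed and 4 opened regions, all 4 opened ones with an AP1 word, and Tcf7l1, a repressor of Wnt targets, had 3 closed (up to 15.5) and none opened. Nfib went the other way, with 6 opened and 1 closed. So did Lhx2 and Barx2 (3 opened and 1 closed) and, by less, Gli2 (5 and 4) and Nfatc1 (3 and 2).

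Over all genes 21.2% of the assigned regions were opened and 13.3% closed, and differences of a list from these were not tested. The 11 AP1 subunit genes had 75 regions, of which 12 (16.0%) were opened and 9 (12%) closed, and 10 promoters had a peak in both lists. Jun had 4 opened regions, scoring 3.39 to 3.61, and 2 closed ones, at 3.95 and 5.69. Fos had 3 opened, with 12.4 as the highest, and 2 closed. The AP1 target genes of epithelium had 154 regions, with 29 (18.8%) opened, 13 (8.44%) closed and 112 kept, and kept regions ranked higher in AFOS by a median of 4.79 points against 1.29 over all genes. The promoter of Mmp13, a collagenase gene, was opened at 3.26 and held an AP1 word. Mmp3, stromelysin, had 2 opened regions (9.72 and 8.38) and no other. Il1b had 4 opened and none closed, 3 of them with an AP1 word. Vegfa and Ivl had 3 opened and none closed each, while Cd44 had 5 opened and 6 closed and Ptgs2 2 and 4.

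The EGF receptor and its ligands had 130 regions. Of these 27 (20.8%) were opened and 11 (8.46%) closed, against 21.2% and 13.3% over all genes, and all 15 promoters had a peak in both lists. Tgfa, a ligand, had 8 opened and none closed, with scores of 3.30 to 7.81 and an AP1 word in 3. Egfr itself had 3 opened, 3 closed and 16 kept regions. The YAP and TEAD targets had 19 opened (17.8%) and 11 closed (10.3%) of 107, and their kept regions ranked higher by a median of 6.91 points. Tead1 had 4 opened and 2 closed, Ccn2 3 and 2, and Yap1 none and 3. The keratinocyte cytokine genes had 20 opened (16.8%) and 13 closed (10.9%) of 119, with a median of 5.96 points. Csf2, which encodes GM-CSF, had 3 opened regions (7.04 to 14.4), its promoter among them, and 1 closed. The promoter of Il18 was closed at 4.81.

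Epidermal identity was covered by 3 lists. The epidermal transcription factors had 32 opened (14.5%) and 34 closed (15.5%) of 220 regions, and all 18 promoters had a peak in both lists. Hes1, a Notch target, had 7 closed and 4 opened, and Rxra 6 opened and none closed. Basal keratins and adhesion genes had 27 opened (16.5%) and 19 closed (11.6%) of 164. The promoter of Krt15, a keratin of basal and bulge cells, was closed at 6.01. Col17a1, a hemidesmosome collagen, had 5 closed (up to 18.1) and 2 opened, Itgb1 5 opened and none closed, and Dst 6 opened and 4 closed. The suprabasal and cornified envelope genes had 8 opened (17.4%) and 9 closed (19.6%) of 46, with the promoter of Cdsn, corneodesmosin, opened at 7.67.

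The TGF-beta and BMP pathway had 26 regions opened and 26 closed (16.6% each) of 157, and the promoters of Bmp2 and Bmp7 were closed at 4.33 and 32.0. The EMT and mesenchymal genes had 17 opened (25.4%) and 9 closed (13.4%) of 67, and the promoters of Acta2 (7.12) and Twist1 (3.07) were closed. SWI/SNF subunits had 10 opened (14.9%) and 11 closed (16.4%) of 67, and the promoter of Smarcd3 was closed at 3.08. The NRF2 and stress response genes had 24 (20.3%) and 16 (13.6%) of 118, with 7 opened and 1 closed at Gadd45a. The housekeeping genes had 6 (10.2%) and 9 (15.3%) of 59, and all 12 of their promoters had a peak in both lists. Over the 218 genes of the 14 lists, 178 had a kept promoter peak, 12 a closed one alone and 5 an opened one alone.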

How the data were processed

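ATAC-seq of cultured mouse keratinocytes gave 1 pooled peak list for noDOX and 1 for AFOS, from 2 samples each. The authors deposited peaks with a score in column 5, at or above about 3, whose scale is not given in the sources used here. Read counts were not used here, so the depth per sample is unknown. The submitters' processing notes name Bowtie2 2.2.9, SAMtools 1.9, Picard 2.3.0, MACS2 2.1.1 and deepTools 2.5.4, and the mm10 build. Depth and peak calling could each move a weak peak across the threshold.

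Peaks of both lists were merged at 1 bp of overlap in Python 3.11.15 with pandas 2.3.3, and the functions were tested on made-up data. A score was also given as a percentile of its list. Regions were assigned to the nearest TSS of a protein-coding gene of GENCODE vM21 (within 100 kb for gene lists), and 16 consensus words were searched on both strands in the central 200 bp of GRCm38 with pysam 0.24.0. Intervals are Wilson intervals from statsmodels 0.14.6. With pooled lists no test between groups was possible. Members, the 14 gene lists and the 5 marker lists were chosen with earlier results of these data known.

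Named were the 10 opened regions with the highest AFOS score and the 10 closed with the highest noDOX score, the 5 kept regions above the median of either list that ranked most higher and the 5 that ranked most lower, the 5 genes with most opened and with most closed regions (ties to the gene with fewer regions), up to 4 genes per list with most changed regions, and the construct genes. Not every gene among those with most changed regions of a list is named. Left out are, for example, Smad3 with 5 opened and 4 closed regions and Areg with 2 and 2. Other named genes were chosen after their values were seen. Regions on chromosome 18 were counted and not named, among them 1 that would have been among the 5 that ranked most lower. Of the 10 highest opened regions 1 is counted and not reported by name here. Alternatives were a score of at least 5, lists of equal length, other overlaps and unions, other windows, regions over 1 kb from a TSS and all annotated genes.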

Additional observations from a re-analysis of the deposited data

How the results depend on the processing

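No paired analysis was possible because the replicates of each group were pooled in 1 list, and for the same reason no replicate could be left out. Of 46 recalculated values, 26 stayed within 1.5 times the count or within the interval of the reported share, 18 moved and 2 turned direction. The counts of opened, closed and kept regions stayed within 1.5 times under each of the 5 alternatives. Leaving out regions within 1 kb of a peak of the other list removes changed regions only. The kept count of that alternative was therefore fixed in advance and shows no stability. With lists of equal length 11218 regions were opened and 11748 closed, counts that equal length brings near each other. The percent of noDOX regions closed, 17.6, was 18 with scores of at least 5, 22.2 with lists of equal length and 16.2 without regions within 1 kb of a peak of the other list.

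For AP1, opened minus kept was 8.53 percentage points as reported over all regions, 10.1 with scores of at least 5 and 2.38 over 1 kb from a TSS. It was -1.96 over full regions, where kept regions are wider, and with a window of 400 bp, added after seeing the data, 6.2 over all regions and -2.33 over 1 kb from a TSS. Closed minus kept was -3.37 as reported, -13.5 over full regions, -8.14 over 1 kb from a TSS, and -6.11 and -12.8 with the 400 bp window over all regions and over 1 kb from a TSS. It was under 0 in each of these alternatives, though within 1 kb of a TSS closed regions held the word more often than kept ones (5.24% and 3.33%). The percent of opened regions within 1 kb of a TSS, 2.76, was 3.21 with scores of at least 5 and 5.50 with all annotated genes, and that of closed regions, 10.3, was 12 and 13.6. Opened regions stayed under closed ones in each. The share of kept regions that ranked 25 points or more higher in AFOS, 13.0%, was 10.8% with ranks among kept regions alone and 10.2% with lists of equal length, and that of regions lower by as much, 7.41%, was 10.3% and 10.9%. Both alternatives were added after seeing the data.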

Other observations

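The offset of words from peak centres separated the 12 lists by the way they are named. In peaks under 400 bp, AP1 words lay on average 26.0 bp to the lower-coordinate side of the centre in cells with SOX9 and AFOS and 31.2 bp in cells with SOX9 and ARID1a, as in AFOS alone, and these are the 3 lists whose names mention fragments. In the other 9 lists the mean lay between -1.62 and 0.564 bp. CTCF words showed the same, at 41.2 and 41.3 bp to that side in those lists and between -7.93 and -1.06 bp in the 9 others. In peaks of 600 bp or more of the AFOS list the offset was on the other side, 33.2 bp for AP1 and 34.4 bp for CTCF. Comparisons between a list of each kind, at the scale of a peak's width, carry this difference.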
